A study of Mus musculus with 6 samples.

Results

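Protein phosphatase 2A (PP2A) works as a complex of a scaffold A subunit, a catalytic C subunit and 1 of many regulatory B subunits. The scaffold holds the catalytic subunit and the B subunit together, and the B subunit sets where the enzyme acts and which phosphoproteins it meets. The catalytic subunit has 2 genes, Ppp2ca and Ppp2cb, and in PP2AcKO macrophages the first of these was deleted. Described here are the mRNA levels of 10 genes for scaffold and B subunits, taken by gene symbol from the 55453 genes of the deposited count table. They comprise 2 scaffold genes (Ppp2r1a and Ppp2r1b), 2 genes of the B55 family (Ppp2r2a and Ppp2r2d), 1 gene of the PR72 family, also called B″ (Ppp2r3c), and the 5 genes of the B56 family (Ppp2r5a to Ppp2r5e).

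RNA-Seq was performed on 6 libraries of bone marrow-derived macrophages (BMDM) of C57BL/6 strain, 3 with genotype PP2A KO (here PP2AcKO) and 3 wild type (PP2AcWT). PP2AcKO mice carried a floxed Ppp2ca allele and LysMcre, in which the promoter of the lysozyme gene Lyz2 drives Cre in cells of the myeloid lineage, so that deletion is directed to myeloid cells and not to the whole mouse, while the controls are described as WT. The PP2AcKO line came from another laboratory and the WT mice from a vendor, so that genotype and origin of the mice cannot be told apart. BMDM were grown from bone marrow with M-CSF or with medium conditioned by L929 fibroblasts, and both genotypes were taken as treated with cGAMP, the agonist of STING, because the study describes that treatment for its RNA-Seq while the labels name none. Age, sex and the animal or culture behind each library are not given in the labels. The study states as a general rule that cell experiments had biological triplicates, but not which cultures or mice these libraries came from, and p-values measure the spread between these samples.

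The 6 libraries held between 35257156 and 47390899 counts on genes, and each of the 10 genes had between 663 and 10784 counts in every library. As a check of the labels, Ppp2ca had 47, 33 and 38 counts in PP2AcKO and 10654, 8913 and 8279 counts in PP2AcWT. Of the macrophage markers, all 10 were tested and 3 were higher in PP2AcKO (6 in the fit blocked by replicate number), with a summed level of 8897 to 9030 CPM (counts scaled to the size of the library) in PP2AcKO and 7514 to 8075 CPM in PP2AcWT. Fibroblast markers summed to 26.2 to 38.4 CPM in PP2AcKO and 83.2 to 127.8 CPM in PP2AcWT, and 7 of the 7 tested (of 8 listed) were lower. Proliferation genes summed to 283.8 to 299.7 CPM in PP2AcKO and 360.2 to 430.3 CPM in PP2AcWT, and 8 of 10 were lower. Dendritic cell markers summed to 2.18 to 3.16 CPM in PP2AcKO and 1.24 to 2.05 CPM in PP2AcWT, with 2 of 4 tested higher. T and NK cell markers summed to at most 0.212 CPM, B cell markers to at most 2.11 CPM and neutrophil markers to at most 1.07 CPM in any library, with Cd8a and Ly6g at 0 in all 6. Over all genes tested, 37.1% were called at the threshold given below, 18.1% higher and 19.0% lower (50.9% in the blocked fit). The macrophage counts of 3 and 6 of 10 stand beside these shares for either direction. All of these calls were higher and 0 lower, where 18.1% of all genes were higher, and 24.4% in the blocked fit. In that direction the macrophage list was thus above the share of all genes in both fits. The fibroblast, proliferation, dendritic cell and macrophage lists had members that differed by genotype in the same libraries as the results that follow. Their part in those results was not tested. None of the B cell (0 of 2) or neutrophil (0 of 1) markers tested was called by edgeR, also at an unadjusted p under 0.05, and 0 T and NK cell markers had enough counts to be tested. In bulk RNA, fewer cells of a type and less RNA per cell cannot be told apart.

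All 10 genes passed the filter on low counts. Their mean levels lay between the 54.0th and 94.3rd percentile of the 13680 genes tested. In PP2AcKO BMDM, 4 of the 10 were higher (Ppp2r5a, Ppp2r2a, Ppp2r1b and Ppp2r1a), 1 was lower (Ppp2r5d) and 5 did not pass the threshold, which was an adjusted p under 0.05 in the quasi-likelihood test of edgeR, adjusted by Benjamini-Hochberg over all genes tested. Among all genes tested, 37.1% passed the threshold (18.1% higher and 19.0% lower), so that 5 of 10 is not far from the background of this comparison. The changes of the subunit genes were modest in size. Their median log2 fold change was 0.08 where that of all genes was -0.02, and the median size regardless of sign was 0.14 where that of all genes was 0.23. All genes include those at levels under the 54.0th percentile, lower than any of the 10, and genes of like level were not compared. None of the 10 (0) had a log2 fold change over 1 in size with an adjusted p under 0.01, which 6.35% of all genes had. In 6 of the 10 genes the libraries of the genotypes did not overlap, as in 50.9% of all genes. In the fit blocked by replicate number the calls were again 4 higher and 1 lower, while 24.4% of all genes were then higher and 26.4% lower, 50.9% in all.

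**Figure D1:**
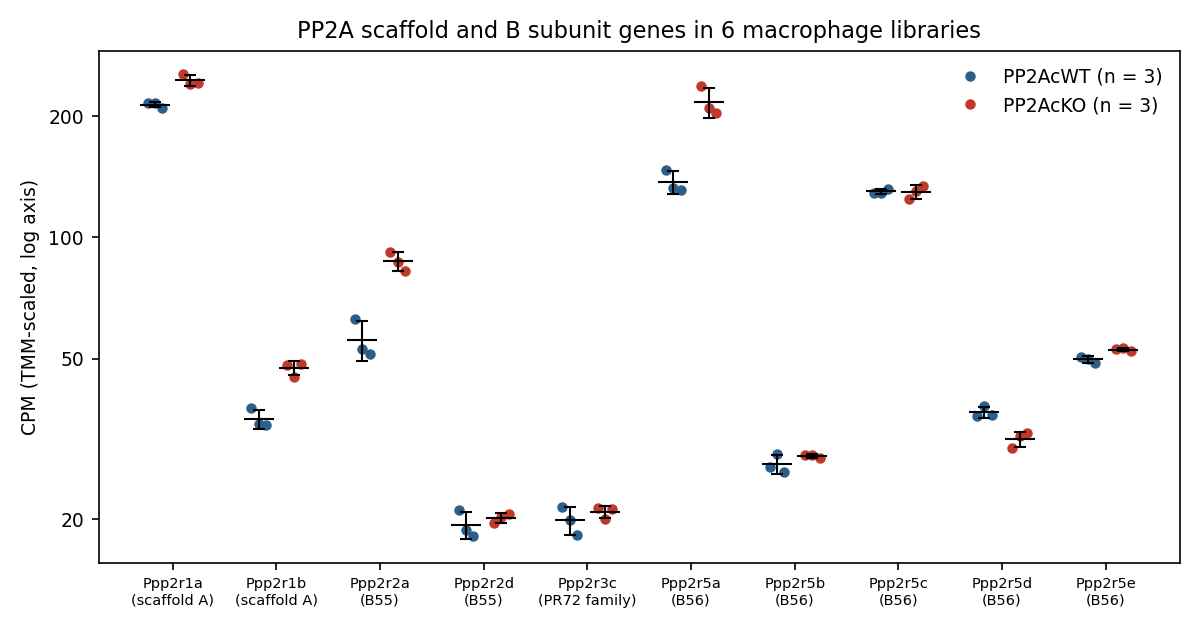
Level of each scaffold and B subunit gene in each of the 6 libraries (CPM scaled by TMM, log axis), PP2AcWT in blue and PP2AcKO in red, with bars for the mean and SD of 3 libraries. The PP2AcKO libraries sit above the PP2AcWT libraries for Ppp2r1a, Ppp2r1b, Ppp2r2a, Ppp2r5a and Ppp2r5e, and under them for Ppp2r5d.

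The promoters of these genes were read from RefSeq (GRCm38.p6) as windows from 250 bases before to 50 bases after a transcript start. Windows were given for 8 of the 10 genes, 11 windows in all, and Ppp2r2a and Ppp2r5e had none. The windows of Ppp2r5d largely overlap each other, as do those of Ppp2r2d, so that the 11 are not all distinct sequences. The 250 bases before the start are printed for Ppp2r5a and Ppp2r1b, since these are the called genes with a window that changed the most and their windows hold 0 bases of the gene's own annotated exons. Sequences are on the strand of the gene, 5′ to 3′, with the GC box (GGGCGG or its reverse complement CCGCCC, the sequence that Sp factors bind) in capitals. The window of Ppp2r5a lies at chr1:191397042-191397291 on the reverse strand and that of Ppp2r1b at chr9:50856674-50856923 on the forward strand. Both lie inside the gene as annotated in GENCODE M21 (chr1:191351975-191403272 and chr9:50845301-50894229), downstream of its outermost start.
Ppp2r5a: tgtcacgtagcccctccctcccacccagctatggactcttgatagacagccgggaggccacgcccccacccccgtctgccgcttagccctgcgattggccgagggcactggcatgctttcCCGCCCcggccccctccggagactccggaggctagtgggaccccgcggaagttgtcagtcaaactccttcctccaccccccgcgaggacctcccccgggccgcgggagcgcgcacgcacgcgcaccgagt
Ppp2r1b: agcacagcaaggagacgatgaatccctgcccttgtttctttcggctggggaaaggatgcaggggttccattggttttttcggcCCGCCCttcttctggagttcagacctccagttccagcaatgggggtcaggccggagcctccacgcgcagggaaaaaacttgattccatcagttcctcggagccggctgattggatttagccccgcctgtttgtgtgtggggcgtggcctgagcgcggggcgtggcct
Both held 1 GC box. In the full windows of 300 bases, 6 of the 8 genes had at least 1 GC box on either strand (7 of 11 windows), where 35.7% of all 32851 promoters of the same length did. The 6 were Ppp2r1a, Ppp2r1b, Ppp2r5a, Ppp2r5b, Ppp2r5c and Ppp2r5d, and thus included genes that were higher, lower and not called. The median GC content of the 11 windows was 62% (from 44.3% to 75.7%) and the median number of CpG was 22 (from 6 to 38), where all promoters had medians of 52.7% and 7. The letters of the interferon-stimulated response element (TTTC and TTTC with 2 bases between them) were in 0 of the 11 windows and in 3.44% of all promoters. Those of an NF-κB site (GGG and TTTCC with 2 bases between them) were in 0 windows and 1.63% of all, those of an AP-1 site (TGANTCA) in 0 and 7.81%, and those of a TEAD site (CATTCC) in 0 and 14.7%. The GAS element (TTCNNNGAA) was in the window of Ppp2r5b and in 8.30% of all promoters, and an ETS site (CCGGAAG) in that of Ppp2r1a and in 8.86%. All letters were searched on both strands, and a match is a description of the letters only.

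The scaffold genes encode the Aα and Aβ subunits, onto which every PP2A trimer is built. Ppp2r1a (ENSMUSG00000007564.15, chr17:20945311-20965916, forward strand, GRCm38) had 254.2, 240.2 and 242.0 CPM in the PP2AcKO libraries of replicates 1, 2 and 3, and 216.1, 214.9 and 209.5 CPM in the PP2AcWT libraries. Every PP2AcKO library was thus above every PP2AcWT library. The means were 245.4 ± 7.63 and 213.5 ± 3.49 CPM (SD, n = 3), a fold change of 1.15 (95% interval 1.05 to 1.26, log2 fold change 0.20, standard error 0.06, adjusted p = 0.0273 from edgeR). This call was the least stable of the 4 increases. It was lost with upper-quartile scaling (log2 fold change 0.14, adjusted p = 0.0944 from edgeR) and with no filter on low counts (0.19, adjusted p = 0.0724 from edgeR). It was also lost without PP2AcKO replicate 1, 2 or 3 (adjusted p = 0.0910, 0.0684 and 0.0581 from edgeR) and without PP2AcWT replicate 2 or 3 (0.0816 and 0.0793), with log2 fold changes between 0.17 and 0.22.

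Ppp2r1b (ENSMUSG00000032058.14, chr9:50845301-50894229, forward strand), the gene of the less abundant scaffold, had 48.4, 45.2 and 48.6 CPM in PP2AcKO and 37.7, 34.5 and 34.3 CPM in PP2AcWT. The lowest PP2AcKO library was above the highest PP2AcWT library. With means of 47.4 ± 1.91 and 35.5 ± 1.92 CPM (SD, n = 3), the fold change was 1.33 (95% interval 1.21 to 1.48, adjusted p = 0.00105 from edgeR). Of the exon bases of Ppp2r1b, 1429 (22.2%) overlap exons of Sik2 on the opposite strand. The libraries were made with a directional kit but the strand setting of the counting is not stated, so that reads of both genes over these bases may not have been told apart. Sik2 itself had 709 to 1225 counts and a log2 fold change of -0.11 (adjusted p = 0.211 from edgeR). Within each library, Ppp2r1b made up 9.15%, 9.05% and 9.60% of the scaffold counts per kilobase of exon in PP2AcKO and 8.45%, 7.83% and 7.97% in PP2AcWT. The share was higher by 1.19 percentage points in PP2AcKO, and the genotypes did not overlap (two-sided exact permutation p = 0.1, adjusted p = 0.1 over 7 shares and ratios). With 3 libraries per genotype, 0.1 is the smallest p that this test can give.

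The B55 subunits direct PP2A to substrates of cyclin-dependent kinases and to other phosphoproteins, and are held in check during mitosis by Arpp19 and Ensa. Ppp2r2a (ENSMUSG00000022052.9, chr14:67014056-67072444, reverse strand), which encodes B55α, had 92.2, 87.1 and 82.7 CPM in PP2AcKO and 62.9, 52.9 and 51.5 CPM in PP2AcWT. All PP2AcKO libraries were above all PP2AcWT libraries, and replicate 1 was the highest library in both genotypes. The means of 87.3 ± 4.76 and 55.8 ± 6.25 CPM (SD, n = 3) differed by a fold of 1.56 (95% interval 1.37 to 1.79, log2 fold change 0.65, adjusted p = 4.90e-04 from edgeR). Its change was larger than that of 91.2% of the genes tested, counted with sign.

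Ppp2r2d (ENSMUSG00000041769.13, chr7:138846079-138883057, forward strand), which encodes B55δ, had 19.6, 20.3 and 20.7 CPM in PP2AcKO and 21.1, 18.8 and 18.2 CPM in PP2AcWT. The genotypes overlapped, and the fold change was 1.04 with a 95% interval from 0.926 to 1.17 (adjusted p = 0.584 from edgeR). Its small difference turned to -0.0049 on the log2 scale with upper-quartile scaling. Over 195 bases its exons overlap those of Mapk1ip1 on the opposite strand, which had 217 to 363 counts (log2 fold change -0.19, adjusted p = 0.174 from edgeR). Counts of Ppp2r2a per kilobase of exon were 5.17, 4.71 and 4.38 times those of Ppp2r2d in PP2AcKO and 3.27, 3.08 and 3.10 times in PP2AcWT. This ratio was chosen after its values were seen and was not tested. The other B55 genes, Ppp2r2b and Ppp2r2c, had 0 counts in all 6 libraries.

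Ppp2r3c (ENSMUSG00000021022.9, chr12:55278991-55302998, reverse strand) encodes a B subunit of the PR72 family, whose members carry calcium-binding EF-hand domains. It had 21.4, 20.1 and 21.2 CPM in PP2AcKO and 21.5, 19.96 and 18.3 CPM in PP2AcWT. The PP2AcKO values fell within the range of the PP2AcWT values, and the fold change was 1.05 (95% interval 0.932 to 1.18, adjusted p = 0.513 from edgeR). Over 243 bases its exons overlap those of 1110008L16Rik on the opposite strand, which had 134 to 259 counts (log2 fold change -0.24, adjusted p = 0.218 from edgeR). Of the PR72 genes outside the 10, Ppp2r3a was lower in PP2AcKO, with 5.86 ± 0.787 CPM against 9.31 ± 0.641 CPM (SD, n = 3, log2 fold change -0.66, adjusted p = 0.00183 from edgeR), and Ppp2r3d had a log2 fold change of 0.13 (adjusted p = 0.387 from edgeR).

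The B56 subunits recruit partner proteins that carry a short LxxIxE motif and are known for roles in mitosis, Wnt and Akt signaling and the turnover of c-Myc. Of the 5 genes, 1 rose, 1 fell and 3 did not pass the threshold. Ppp2r5a (ENSMUSG00000026626.11, chr1:191351975-191403272, reverse strand), which encodes B56α, had 237.8, 209.3 and 203.2 CPM in PP2AcKO and 147.2, 132.7 and 131.4 CPM in PP2AcWT. The PP2AcKO libraries lay well above the PP2AcWT libraries, and as for Ppp2r2a replicate 1 was the highest in both genotypes. The means were 216.8 ± 18.4 and 137.1 ± 8.79 CPM (SD, n = 3), a fold change of 1.58 (95% interval 1.39 to 1.79, log2 fold change 0.66, standard error 0.08, adjusted p = 3.53e-04 from edgeR), the largest in size of the 10 genes in the genotype-only fit. Its value exceeded that of 91.5% of the genes tested.

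Ppp2r5d (ENSMUSG00000059409.9, chr17:46682991-46705111, reverse strand), which encodes B56δ, a subunit altered in a human neurodevelopmental disorder, was the 1 gene of the 10 that was lower in PP2AcKO. It had 30.0, 32.1 and 32.7 CPM in PP2AcKO and 36.1, 38.2 and 36.3 CPM in PP2AcWT. The highest PP2AcKO library was under the lowest PP2AcWT library. The means of 31.6 ± 1.41 and 36.9 ± 1.16 CPM (SD, n = 3) gave a fold of 0.858 (95% interval 0.779 to 0.945, log2 fold change -0.22, adjusted p = 0.0198 from edgeR). The call was lost without PP2AcKO replicate 1 (log2 fold change -0.19, adjusted p = 0.0621 from edgeR), without PP2AcKO replicate 2 (-0.23, adjusted p = 0.0526) and without PP2AcWT replicate 2 (-0.19, adjusted p = 0.0863), so that the number of subunit genes called lower was then 0. Over 121 bases its exons overlap those of Mea1 on the opposite strand, which had 1133 to 1433 counts and a log2 fold change of 0.11 (adjusted p = 0.340 from edgeR).

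Ppp2r5e (ENSMUSG00000021051.10, chr12:75450881-75596245, reverse strand), which encodes B56ε, had 52.8, 53.2 and 52.3 CPM in PP2AcKO and 50.6, 50.1 and 48.9 CPM in PP2AcWT. The libraries of the genotypes did not overlap, yet the fold change of 1.06 (95% interval 0.974 to 1.15) did not pass the threshold (adjusted p = 0.259 from edgeR, and 0.118 when blocked by replicate). Ppp2r5b (ENSMUSG00000024777.10, chr19:6227765-6235872, reverse strand), which encodes B56β, had 28.9, 28.9 and 28.3 CPM in PP2AcKO and 27.0, 29.1 and 26.3 CPM in PP2AcWT. These overlapped, with a fold change of 1.05 (95% interval 0.947 to 1.15, adjusted p = 0.463 from edgeR), and upper-quartile scaling turned the sign of the difference. Ppp2r5c (ENSMUSG00000017843.14, chr12:110447120-110583062, forward strand), which encodes B56γ, had 124.6, 130.3 and 134.3 CPM in PP2AcKO and 129.2, 129.2 and 132.0 CPM in PP2AcWT. The PP2AcWT values fell within the range of the PP2AcKO values. Its fold change was 0.997 (95% interval 0.909 to 1.09, adjusted p = 0.963 from edgeR), and its sign changed with RLE scaling. Over the 5 genes not called, the intervals reached from 0.909 to 1.18.

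**Figure D2:**
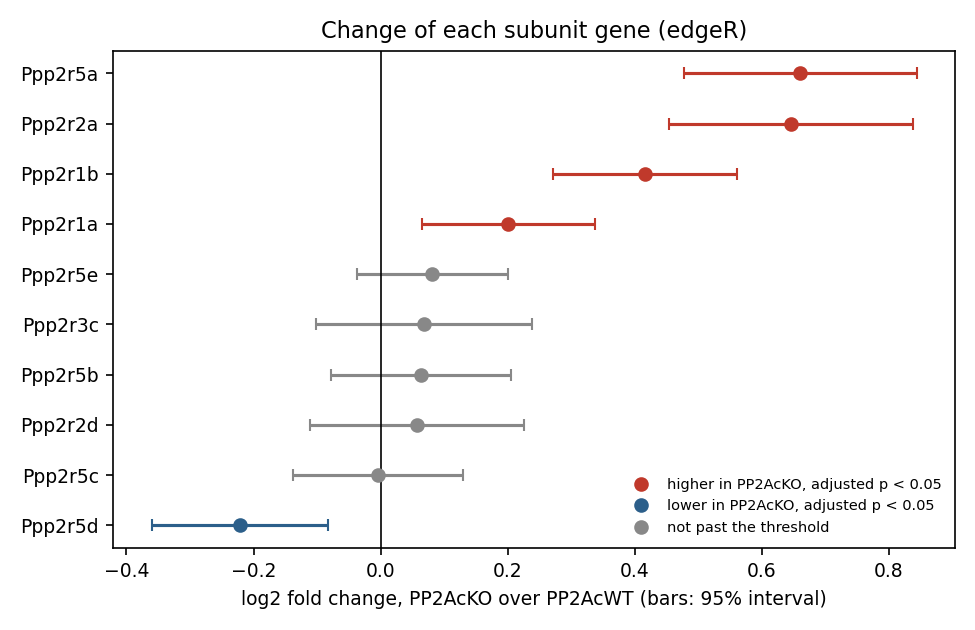
Log2 fold change of each of the 10 subunit genes, PP2AcKO over PP2AcWT, from edgeR, with 95% intervals as bars. The intervals of Ppp2r5a, Ppp2r2a, Ppp2r1b and Ppp2r1a lie above 0, that of Ppp2r5d under 0, and those of the other 5 include 0.

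Levels were compared between genes as CPM per kilobase of the gene's exons in GENCODE M21. In PP2AcWT, Ppp2r1a was the most abundant with 62.6 CPM per kilobase, followed by Ppp2r5c (15.7), Ppp2r5a (14.3), Ppp2r5d (10.8), Ppp2r2a (10.4), Ppp2r5e (9.33), Ppp2r5b (8.14), Ppp2r1b (5.51), Ppp2r3c (3.36) and Ppp2r2d (3.28). Ppp2r5d and Ppp2r2a overlapped in level between libraries, as did Ppp2r3c and Ppp2r2d, while the other neighbors in this order did not. In PP2AcKO, Ppp2r1a stood at 72.0 CPM per kilobase, and Ppp2r5a (22.6) and Ppp2r2a (16.2) stood ahead of Ppp2r5c (15.7), the latter pair overlapping. Ppp2r5e (9.87), Ppp2r5d (9.30), Ppp2r5b (8.51), Ppp2r1b (7.35), Ppp2r3c (3.53) and Ppp2r2d (3.42) followed, of which Ppp2r3c and Ppp2r2d overlapped. The order depends on the length used. The exons of Ppp2r5a span 9607 bases together but its longest transcript has 3541, and per kilobase of the longest transcript Ppp2r5a was already second in PP2AcWT (38.7 CPM per kilobase against 31.7 for Ppp2r5c) as it was in PP2AcKO (61.2 against 31.6).

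The make-up of the B56 pool was compared within each library, which needs no scaling between libraries. Ppp2r5a made up 36.9%, 33.3% and 32.5% of the summed B56 counts per kilobase in PP2AcKO and 26.0%, 23.6% and 23.9% in PP2AcWT. Its mean share was 34.2% ± 2.37 in PP2AcKO and 24.5% ± 1.31 in PP2AcWT (SD, n = 3), higher by 9.74 percentage points. The size of this share depends on the length used. It was 47.1% and 35.9% with counts not divided by length, and 49.1% and 37.6% with the longest transcript as length. With either of these, Ppp2r5a and not Ppp2r5c had the largest share in PP2AcWT. The share of Ppp2r5d differed by -4.48 points (14.1% ± 0.840 against 18.6% ± 0.591) and that of Ppp2r5c by -3.18 points (23.8% ± 1.25 against 27.0% ± 0.772). Ppp2r5b and Ppp2r5e had shares that differed by -1.05 and -1.02 points. Shares sum to a whole, so that a gene whose CPM differed little, such as Ppp2r5c, can have a lower share beside a gene that rose. In each of the 5 shares the genotypes did not overlap, and each had a two-sided exact permutation p of 0.1 (adjusted p = 0.1), the smallest that the design allows. Summed B56 counts per kilobase were 0.831 ± 0.0141 times the summed scaffold counts in PP2AcKO and 0.856 ± 0.00271 times in PP2AcWT (SD, n = 3, exact permutation p = 0.1). The sign of this last difference, -0.0246, turned to 0.0379 with counts not divided by length and to 0.0389 with the longest transcript as length, so that no direction can be given for it. Summed catalytic counts per kilobase, described without a test because the deletion itself lowers them, were 0.369 ± 0.00611 times those of the scaffold in PP2AcKO and 0.823 ± 0.00745 times in PP2AcWT. With counts not divided by length the same ratio was 0.150 ± 0.00192 in PP2AcKO and 0.994 ± 0.0166 in PP2AcWT, and with the longest transcript as length 0.255 ± 0.00406 and 0.585 ± 0.00512, so that it was lower in PP2AcKO with each length while its size depends on the length used.

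**Figure D3:**
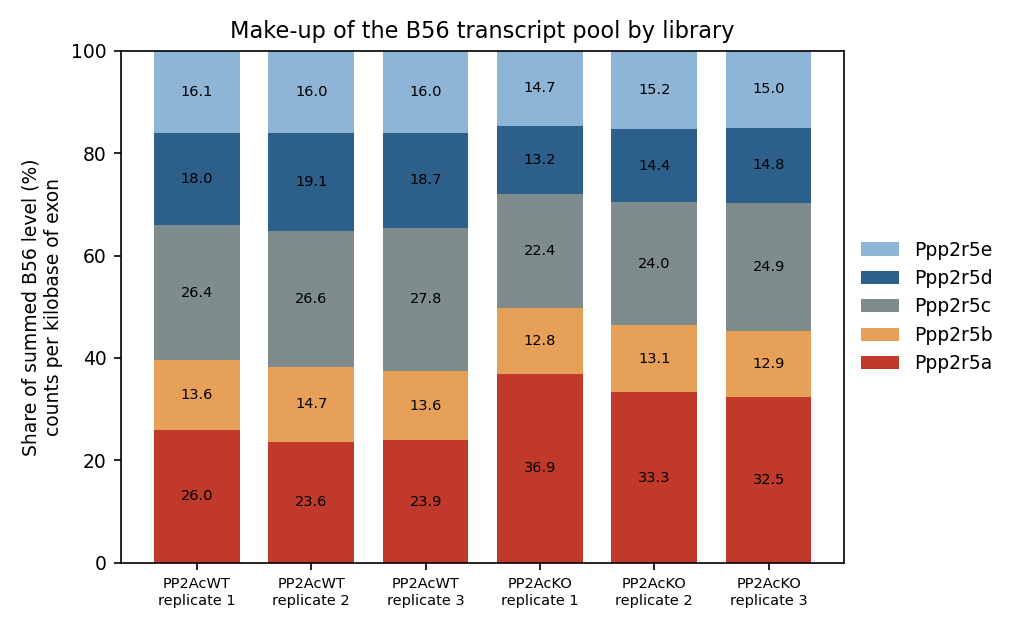
Share of each B56 gene in the summed B56 counts per kilobase of exon (%), 1 bar per library. The share of Ppp2r5a is 23.6% to 26.0% in the PP2AcWT libraries and 32.5% to 36.9% in the PP2AcKO libraries.

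Ppp2r5a, Ppp2r2a and Ppp2r1b were called higher in all 14 fits that were made, which were the genotype-only fit, 7 with another scaling, filter, block or tool, and 6 with 1 library left out. Ppp2r5d was called lower in 11 of the 14 and Ppp2r1a was called higher in 7. Over the 6 fits with a library left out, the log2 fold change ran from 0.58 to 0.72 for Ppp2r5a, from 0.59 to 0.74 for Ppp2r2a and from 0.39 to 0.46 for Ppp2r1b.

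**Figure D4:**
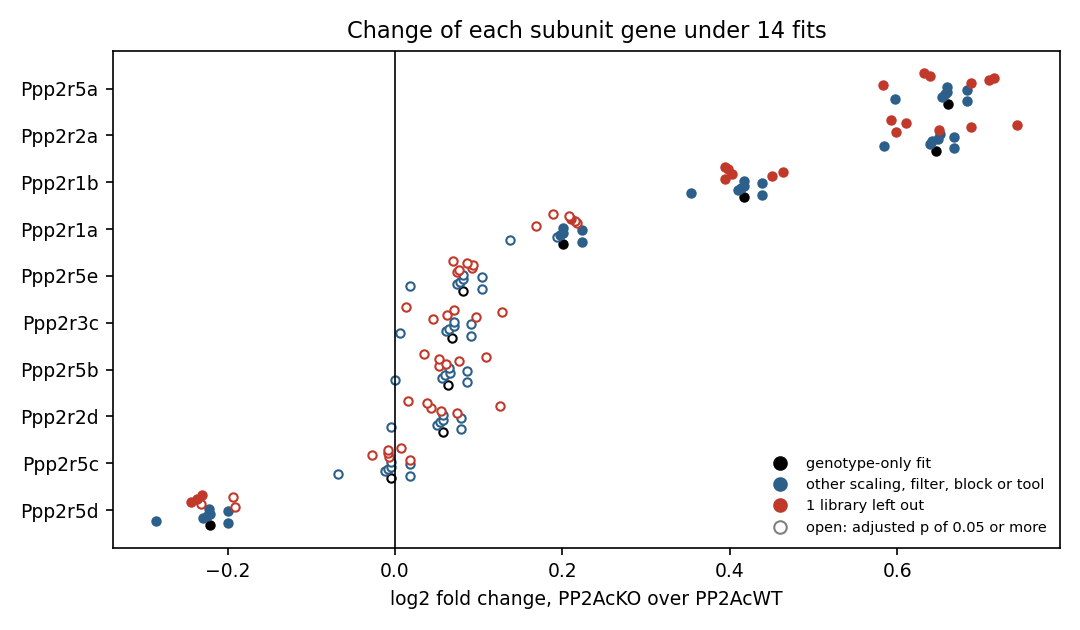
Log2 fold change of each subunit gene, PP2AcKO over PP2AcWT, in 14 fits, with the genotype-only fit in black, other scalings, filters, the block and other tools in blue, and fits without 1 library in red. Filled points passed an adjusted p of 0.05, which all 14 points did for Ppp2r5a, Ppp2r2a and Ppp2r1b, 11 for Ppp2r5d and 7 for Ppp2r1a.

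Other genes of the PP2A system were described from hand-written lists. Their counts stand beside 18.1% of all genes tested called higher and 19.0% called lower (24.4% and 26.4% when blocked by replicate). The remaining catalytic gene Ppp2cb had 42.8 ± 1.02 CPM in PP2AcKO and 42.0 ± 0.568 CPM in PP2AcWT (SD, n = 3, log2 fold change 0.03, adjusted p = 0.731 from edgeR). The striatins serve as B subunits that tie PP2A to kinases of the Hippo pathway. Of the 3 genes, Strn4 was lower (log2 fold change -0.19, adjusted p = 0.0399 from edgeR), while Strn (0.11, adjusted p = 0.263) and Strn3 (0.11, adjusted p = 0.209) did not pass the threshold. When blocked by replicate, Strn was called higher (adjusted p = 0.0430 from edgeR). The call of Strn4 was lost with RLE scaling, no filter, DESeq2, and without PP2AcKO replicate 1 or 2 or PP2AcWT replicate 2 or 3, where the count of striatins called lower was 0. Of 5 assembly and activation factors, 1 rose, Igbp1, which binds the free catalytic subunit (57.9 ± 1.65 against 41.8 ± 2.17 CPM, SD, n = 3, log2 fold change 0.47, adjusted p = 4.61e-04 from edgeR). The median of this list was -0.04.

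Of 14 inhibitor and adaptor proteins of PP2A, 3 rose and 1 fell, with a median log2 fold change of 0.06. The immediate early genes Ier5 (log2 fold change 0.998, adjusted p = 6.16e-05 from edgeR) and Ier3 (0.84, adjusted p = 1.60e-04) were higher, and Cip2a, a PP2A inhibitor known from dividing cells, was lower (-0.73, adjusted p = 5.41e-04). When blocked by replicate, 5 of the 14 were called higher and 4 lower, as were 24.4% and 26.4% of all genes tested. Of 12 genes tested for the related phosphatases PP4 and PP6, 4 rose and 1 fell (6 and 2 with the block), with a median of 0.13. Of all genes tested, 18.1% were higher and 19.0% lower (24.4% and 26.4% with the block). In both fits a larger part of this list was thus higher, and a smaller part lower, than of all genes. This difference was not tested. Ppp6r1 had 437.4 ± 21.0 CPM in PP2AcKO and 273.8 ± 5.42 CPM in PP2AcWT (SD, n = 3, log2 fold change 0.68, adjusted p = 1.31e-04 from edgeR), Ppp4r2 had a log2 fold change of 0.33 (adjusted p = 0.0113) and Ankrd28 one of -0.26 (adjusted p = 0.0272). Ankrd28 was not called with RLE scaling, with DESeq2, or without PP2AcKO replicate 2 or 3 or PP2AcWT replicate 3, and without PP2AcWT replicate 2 or 3 the number of these genes called higher was 2. Of 13 partner proteins of B56, 4 rose and 7 fell, with a median of -0.21, where 18.1% and 19.0% of all genes tested did. Those with the largest change were Cdca2 (log2 fold change -1.68, adjusted p = 7.32e-05 from edgeR), Sgo2a (-1.21, adjusted p = 0.00137) and Bub1b (-1.13, adjusted p = 1.03e-04), which act on chromosomes in mitosis. Without PP2AcWT replicate 2, the number of partner genes called higher was 2. The proliferation genes described above were lower in the same libraries, and their part in the lower values of these mitotic genes was not tested.

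Over the 6 libraries, the genes whose log2 CPM was most like that of Ppp2r5a were Tcf7l2, Stx16 and Tyk2, with a Pearson correlation of 0.999 each. In all, 202 genes had a correlation over 0.99. The points share the split by genotype and the library scaling, and the correlation is a description.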

How the data were processed

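RNA-Seq was analysed for 3 PP2AcKO and 3 PP2AcWT libraries of BMDM, grouped by the genotype in the labels. The authors deposited a single table of read counts per gene for mm10 (GRCm38), without normalization. The submitters' processing notes name fastp 0.20.0, kallisto 0.46.1, STAR 2.7.1a, HTSeq 0.11.2, edgeR 3.34.0 and limma 3.48.3 without their roles. The strand setting and annotation release are not given in the sources used here. Library totals ran from 35257156 to 47390899 counts, and 3 counts equalled 0.0604 to 0.0909 CPM, a floor that covers counting error only.

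The analysis used edgeR 4.0.16 in R 4.3.3. Its filterByExpr (minimum count 10, minimum total 15) kept 13680 of 55453 genes, which were scaled by TMM and tested for genotype with glmQLFit and glmQLFTest. Errors of CPM are SD of 3 libraries. Standard errors and 95% intervals of log2 fold changes come from the same fit. The common dispersion was 0.00769. Exon lengths and coordinates came from GENCODE M21, in which 99.5% of the genes tested were found. Of the windows of 50 bases in each subunit gene, 0 occurred in other PP2A or striatin genes, so that these paralogs share no stretch of that length.

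The labels number the libraries 1, 2 and 3 in each genotype but state no pairing. The genotype-only fit treated the libraries as unpaired. Deviations of same-numbered libraries from the group means correlated at 0.289, 0.148 and 0.337 over 13680 genes, which are not independent replicates. Between PP2AcKO and PP2AcWT libraries of different numbers, the correlations ran from -0.258 to -0.0312. Deviations from a group mean cancel within each genotype, so that these are negative on balance wherever those of same-numbered libraries are positive. They are thus no separate evidence of pairing. Because same-numbered libraries correlated positively, the block was fitted as an alternative. Further fits used upper-quartile or RLE scaling, no filter, at least 10 counts in every library, DESeq2 1.42.0, limma-voom (limma 3.58.1), each library left out in turn, and for shares the length used.

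The 10 genes and all lists were chosen with earlier results of these data known, so no list was tested as a set. Named were the 10 genes, the catalytic and striatin genes, the 3 genes with the largest change past the threshold in each other PP2A list (all where fewer passed), and the 3 genes most correlated with Ppp2r5a. Ppp2r2b, Ppp2r2c and Ppp2r3d, which complete their families, were added once their values were known. So were Sik2, Mea1, Mapk1ip1 and 1110008L16Rik, which overlap subunit genes. The ratio of Ppp2r2a to Ppp2r2d and the order of levels by longest transcript were chosen after seeing the data, as was the ratio of catalytic to scaffold counts.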

Additional observations from a re-analysis of the deposited data

How the results depend on the processing

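Of the 10 subunit genes, Ppp2r5a, Ppp2r2a and Ppp2r1b kept direction and call in all 13 alternative fits. The log2 fold change of Ppp2r1a lost its call with upper-quartile scaling (0.14) and with no filter (0.19), and ran from 0.17 to 0.22 with each library left out. That of Ppp2r5d ran from -0.24 to -0.19 with each library left out, and the number of subunit genes called then ran from 3 to 4 higher and from 0 to 1 lower. Without a call in any fit, the signs of Ppp2r2d (-0.0049), Ppp2r5b (-0.00024) and Ppp2cb (-0.037) turned with upper-quartile scaling, and that of Ppp2r5c with RLE scaling and DESeq2 (0.017 each) and without PP2AcKO replicate 1 (0.017) or PP2AcWT replicate 3 (0.0074). With each library left out it ran from -0.027 to 0.017. Upper-quartile scaling moved the median of all genes from -0.02 to -0.09, and RLE scaling to -0.002. The replicate block changed no call of the 10 genes. It raised the number of striatins called higher to 1, of inhibitors to 5 higher and 4 lower, of PP4 and PP6 genes lower to 2 and of macrophage markers higher from 3 to 6, and moved no other count of these PP2A and marker lists by over 1.5 times. With RLE scaling and with DESeq2 the striatins and the PP4 and PP6 genes called lower numbered 0, and with no filter so did the striatins. With upper-quartile scaling, inhibitors and PP4 and PP6 genes called lower numbered 2 each. Leaving out each library gave 0 to 1 striatin lower, 2 to 5 PP4 and PP6 genes higher and 0 to 1 lower, and 2 to 4 B56 partners higher. The causes were not tested.

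With counts not divided by length, the shares differed by 1.93 points for Ppp2r1b, -1.93 for Ppp2r1a, -5.87 for Ppp2r5c, -2.78 for Ppp2r5d and -1.59 for Ppp2r5e, and with the longest transcript as length by -5.43, -3.43 and -1.27 for the last 3. The share of Ppp2r5a differed by 11.2 points with counts not divided by length and by 11.5 with the longest transcript. With these same 2 settings the ratio of B56 to scaffold differed by 0.0379 and 0.0389, the reverse of the value per kilobase of all exons. Having 3 libraries per genotype limits every p for a share to 0.1 or more. Each of the 10 genes had 663 or more counts per library, and the list genes at the lowest levels, such as Sgo2a and Cdca2, rest on fewer counts.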
